A study of Homo sapiens with 6 samples.

Results

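The genes described here are the bone morphogenetic protein (BMP) ligands BMP2, BMP4 and BMP7, the receptor gene BMPR1A, the antagonist genes CHRDL1, SOSTDC1 and BAMBI, and the target genes ID1, ID2 and ID3. Every probe set that the platform annotation gives to exactly 1 of these genes was taken, which gave 14 probe sets for 9 of the 10 genes, out of 41751 probe sets and 18338 genes in all. BMPR1A had no such probe set and is not analysed here. The genes were chosen by earlier results on the difference between the lines compared below. Total RNA was measured on Affymetrix HG-U133 Plus 2.0 arrays in HEK293, an established human embryonic kidney cell line. The 2 groups were a stable Tet-On HEK293 line with a vector expressing myocilin (3 arrays) and a stable Tet-On HEK293 line with the control vector (3 arrays). In Tet-On cells doxycycline switches on the inserted gene, and both lines were kept under hygromycin B and G418. The protocol, worded alike for all samples, gives 0.2 or 1 µg/ml doxycycline over 48 h. The dose behind an array is not labelled, and only the myocilin samples have a description that names the drug. The labels name 1 line for each vector and do not say whether a line is 1 clone or whether the arrays come from separate cultures. Vector, line and any difference in drug exposure therefore cannot be told apart, and every p below rests on the spread among these arrays alone, which may be technical.

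BMPs are secreted ligands of the TGF-beta superfamily that bring together type I and type II serine/threonine kinase receptors at the cell surface. The activated receptors phosphorylate SMAD1, SMAD5 and SMAD9, which enter the nucleus with SMAD4 and switch on target genes, the ID genes among the most direct. Secreted antagonists bind the ligands before they reach the receptors, so the balance of ligand and antagonist sets the signal a cell receives. In the developing kidney BMP7 is needed for survival of nephron progenitors, and BMP4 acts on the outgrowth of the ureteric bud.

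CHRDL1 and SOSTDC1, which both encode secreted BMP antagonists, differed by -1.27 and -1.24 log2 units between the myocilin and the control line, so that the myocilin line had about 41.4% and 42.3% of the control level. ID3, an early target of BMP signalling, fell by 0.46, to about 72.9%. These 3 were the genes of the 9 past an adjusted p of 0.05 in the limma fit over all genes. No gene of the 9 was called higher by limma. At an unadjusted p under 0.05, 1 of the 9 was higher, BMP7, and 4 were lower, ID2 beside the 3 called. Over all 18338 genes 15.6% passed the adjusted threshold, 8.28% higher and 7.35% lower in the myocilin line. An unadjusted limma p under 0.05 was reached by 5503 of the 18338, 2984 higher and 2519 lower. Since the genes were chosen with this comparison known, their count and their differences are a description and nothing is read from the count. In RNA from whole cultures, fewer cells that express a gene and less RNA per cell cannot be told apart.

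**Figure D1:**
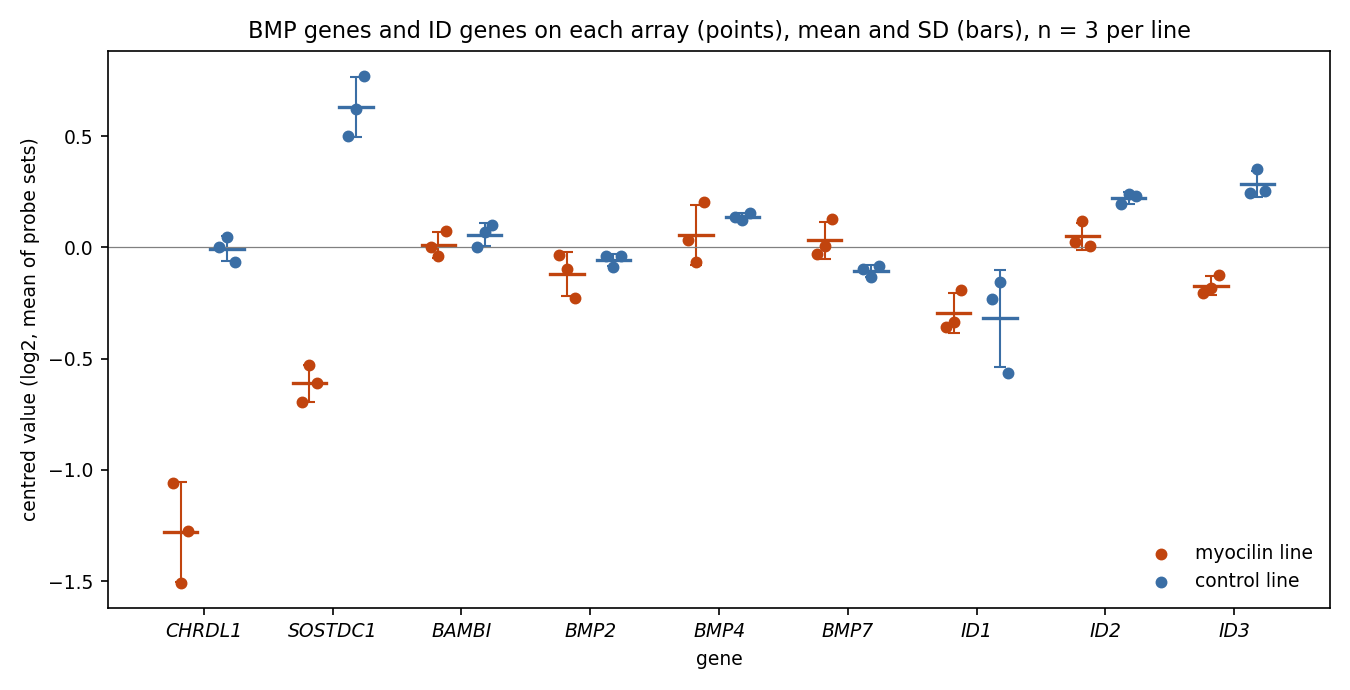
Centred log2 values (vertical axis) of the 9 measured genes on each array, as points, with the mean as a line and the SD as a bar, for the myocilin line (left of each pair) and the control line (right), n = 3 arrays each. The groups of arrays lie apart for CHRDL1, SOSTDC1, BMP7, ID2 and ID3 and overlap for BAMBI, BMP2, BMP4 and ID1.

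All values are on the deposited scale, read as log2, on which the values lie around 0, as if each probe set had been centred on a level that the labels do not name. A value of 0 is read as that level and not the absence of RNA, and values of different genes cannot be set against each other. The myocilin vector was visible in MYOC, which read 0.21, 0.20 and 0.24 on the myocilin arrays, against -6.71, -8.32 and -8.29 on the control arrays. Across probe sets the arrays correlated at 0.513 to 0.608 within the myocilin line, at 0.409 to 0.464 within the control line and at -0.244 to -0.00516 between the lines. Values centred in this way leave out the level that a probe set has on all arrays. These correlations therefore do not measure how alike the arrays or the lines are in expression level. Levels cannot be read from centred values, so the markers of the labelled cell type could not be checked for presence. Of 7 measured kidney development genes 1 rose (WT1, a transcription factor of nephron progenitors, at 0.28) and 0 fell in the limma fit, with 2 and 0 at an unadjusted p under 0.05. The call of WT1 was lost in 7 of 12 alternatives, among them quantile normalisation (adjusted p = 0.0510) and the removal of any single array but control array 1. Among 7 fibroblast genes 1 rose (COL1A1 at 0.25) and 0 fell by limma, with 1 and 0 at an unadjusted p under 0.05. The call of COL1A1 was lost in 5 of 12 alternatives, and 1 of its 5 probe sets, which ran from -0.015 to 0.69, passed. Among 7 neuronal genes NEFM rose by 1.42, with probe sets at 0.17 and 2.66, and SYT1 fell by 0.61, a call lost with 1 probe set per gene (-0.36, adjusted p = 0.0502). At an unadjusted p under 0.05, 2 neuronal genes were higher and 1 lower. Past the threshold were 14.3% of the kidney and fibroblast genes each and 28.6% of the neuronal genes, beside 15.6% of all genes. The part of these marker genes in the results below was not tested.

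Among the antagonists, CHRDL1 (chordin-like 1, a secreted protein with cysteine-rich repeats that bind BMPs) read -1.06, -1.51 and -1.27 on the myocilin arrays, against 0, 0.048 and -0.064 on the control arrays. Every myocilin array lay below -1 and every control array lay near 0. The means were -1.28 ± 0.22 in the myocilin line and -0.0055 ± 0.056 in the control line (SD, n = 3 each), a difference of -1.27 ± 0.10 (SE of the fit). It was the 11th lowest difference of all 18338 genes. The spread of CHRDL1 came mostly from the myocilin arrays, and its residual SD exceeded that of 92.2% of genes. Left-out arrays moved the difference between -1.38 and -1.16.

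SOSTDC1 (sclerostin domain containing 1, also called USAG1, a secreted antagonist of BMPs that also acts on Wnt signalling and is abundant in kidney tubules) read -0.69, -0.53 and -0.61 on the myocilin arrays, against 0.50, 0.62 and 0.77 on the control arrays. Its arrays formed compact groups on either side of 0, with no overlap. The difference was -1.24 ± 0.079 (SE) between means of -0.61 ± 0.084 in the myocilin line and 0.63 ± 0.13 in the control line (SD, n = 3 each). This was the 14th lowest difference of all genes.

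BAMBI, a membrane pseudoreceptor that resembles a type I receptor without the kinase domain and dampens BMP and TGF-beta signalling, read 0, -0.039 and 0.074 on the myocilin arrays, against 0, 0.072 and 0.10 on the control arrays. The groups overlapped, and the difference of -0.045 ± 0.059 (SE) was smaller than its error. BAMBI lies on chromosome 10, where the median gene was 0.11 higher in the myocilin line and where 21.3% of genes were called higher. Set against the 50 genes nearest to it on the chromosome, by their median, BAMBI differed by -0.14, still short of the threshold. CHRDL1 and SOSTDC1 thus differed by over a log2 unit while BAMBI did not pass the threshold. Whether genes for secreted and for membrane-bound antagonists differ was not tested, and these genes were chosen with the comparison known. Among the other antagonists and modulators described below, secreted NBL1 differed by 0.48, TWSG1 by -0.52 and the membrane protein gene CRIM1 by -0.27. CHRDL1, SOSTDC1 and BAMBI are each read by 1 probe set, so no second probe set checks them.

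Of the ligands, BMP2, which drives bone and heart development, read -0.032, -0.096 and -0.23 on the myocilin arrays, against -0.041, -0.090 and -0.040 on the control arrays. The groups overlapped and the difference was -0.062 ± 0.065 (SE). The 2 probe sets of BMP2 gave -0.085 and -0.040. BMP4, which patterns mesoderm and the urinary tract, read 0.034, -0.065 and 0.20 on the myocilin arrays, against 0.14, 0.12 and 0.16 on the control arrays. The SD was 0.14 over the myocilin arrays and 0.017 over the control arrays, which lay inside the myocilin range, with a difference of -0.080 ± 0.073 (SE). For BMP2 and BMP4 no change was detectable with 3 arrays per line.

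BMP7 was the ligand whose probe sets disagreed. Averaged over 4 probe sets it read -0.032, 0.0044 and 0.13 on the myocilin arrays, against -0.095, -0.13 and -0.085 on the control arrays. The groups did not overlap, as was the case for 34.9% of all genes, and the difference of 0.14 ± 0.061 (SE) did not pass the threshold. Probe set 211259_s_at read -0.15, 0.024 and 0.080 on the myocilin arrays, against -0.27, -0.31 and -0.33 on the control arrays, a difference of 0.29 ± 0.080 (SE). Probe set 209591_s_at also gave 0.29, with no overlap between groups, and 209590_at gave 0.11 with overlap. The fourth, 211260_at, read -0.11, -0.089 and 0.31 on the myocilin arrays, against 0.24, 0.10 and 0.18 on the control arrays, a difference of -0.14 ± 0.11 (SE). Myocilin array 3 was the highest of the 6 in 3 of the 4 probe sets and the lowest in 209590_at. From 209590_at and 211260_at alone, BMP7 gave -0.013, so the direction of its mean rests on the 2 _s_at probe sets. Suffixes _s_at and _x_at mark probe sets that may match several transcripts.

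**Figure D2:**
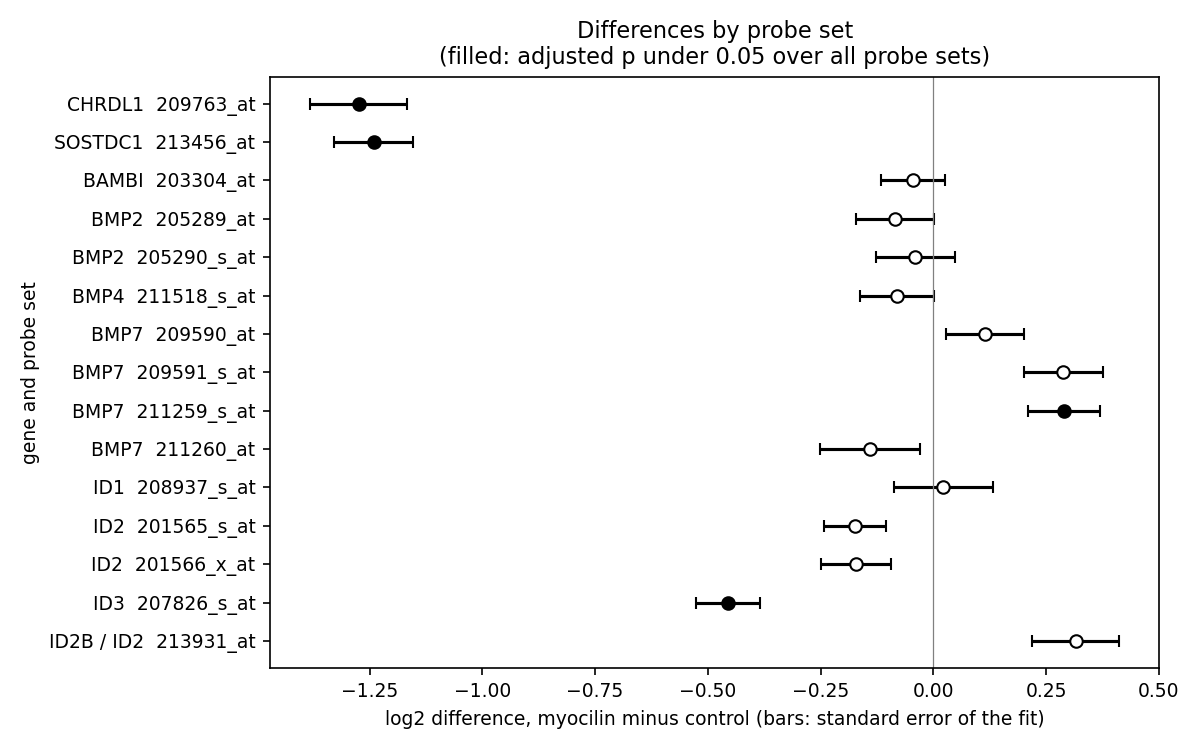
Log2 difference, myocilin minus control, of each probe set (horizontal axis), with the standard error of the fit as a bar, for the 14 probe sets and for 213931_at, which the annotation lists under both ID2 and ID2B. Filled points passed the threshold over all 41751 probe sets: CHRDL1, SOSTDC1, ID3 and 1 of the 4 probe sets of BMP7.

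Counted as probe sets, 4 of the 14 passed the threshold, 1 higher and 3 lower in the myocilin line. Over all probe sets 11% passed, 5.46% higher and 5.56% lower. The groups of arrays lay apart in 6 of the 14, against 30.4% of all probe sets, and in 5 of the 9 genes, against 34.9% of all genes. The median difference was -0.080 over the 9 genes, beside 0.018 over all genes.

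The ID genes encode small helix-loop-helix proteins without a DNA-binding region, which pair with E proteins and keep them off DNA, and they are rapid targets of phosphorylated SMADs. They did not share 1 pattern. ID3 read -0.21, -0.18 and -0.12 on the myocilin arrays, against 0.24, 0.35 and 0.26 on the control arrays. Every myocilin array lay below every control array, and the difference was -0.46 ± 0.058 (SE) between means of -0.17 ± 0.042 in the myocilin line and 0.28 ± 0.060 in the control line (SD, n = 3 each). It was the 311th lowest difference of all genes.

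ID2 read 0.027, 0.12 and 0.0055 on the myocilin arrays, against 0.19, 0.24 and 0.23 on the control arrays. The groups did not overlap, and the difference of -0.17 ± 0.057 (SE) did not pass the threshold. The 2 probe sets, 201565_s_at and 201566_x_at, both gave -0.17, with overlap between the groups in 201566_x_at. Probe set 213931_at, listed under both ID2 and ID2B and not counted here, gave 0.32, in the opposite direction. ID1 read -0.36, -0.33 and -0.19 on the myocilin arrays, against -0.23, -0.16 and -0.56 on the control arrays. Control array 3 was the lowest of the 6 and control array 2 the highest, so the groups overlapped fully, and the difference was 0.022 ± 0.10 (SE). Without control array 3 the difference of ID1 was -0.10, and over all left-out arrays it lay between -0.10 and 0.10. The residual SD of ID1 exceeded that of 92.8% of genes, whereas that of ID3 exceeded 18.9%.

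ID4, the fourth gene of the family, was taken from the list of other BMP targets. It read -0.057, -0.028 and -0.11 on the myocilin arrays, against 0.24, 0.35 and 0.30 on the control arrays. It fell by 0.36 ± 0.058 (log2, SE; limma adjusted p = 0.00383), with no overlap between the lines. Of its 5 probe sets, 209291_at, 209292_at and 209293_x_at gave -0.54, -0.59 and -0.55, while 226933_s_at gave -0.17 and 229386_at 0.023. ID4 lies on chromosome 6, where the median gene was 0.094 higher in the myocilin line. ID3 and ID4 had the lowest differences of the 4 ID genes, followed by ID2 and ID1, and differed from each other by less than the sum of their standard errors. ID4 was the lower of the pair with 1 probe set per gene, at -0.54 against -0.46 for ID3, and about level with it after subtraction of neighbours, at -0.47 against -0.46.

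To set these 4 genes side by side, the 250 bases upstream of each start are given from RefSeq (GRCh38.p14, 5′ to 3′ on the strand of the gene), with those of CHRDL1, the gene with the lowest difference. The table held upstream windows of 7 of the 10 genes. Capitals mark the 4-letter SMAD box GTCT or AGAC, the same site read on either strand. The windows are ID1 at chr20:31605039-31605288 on the plus strand, ID2 at chr2:8681806-8682055 on the plus strand, ID3 at chr1:23559502-23559751 on the minus strand, ID4 at chr6:19837120-19837369 on the plus strand and CHRDL1 at chrX:110795818-110796067 on the minus strand.
ID1: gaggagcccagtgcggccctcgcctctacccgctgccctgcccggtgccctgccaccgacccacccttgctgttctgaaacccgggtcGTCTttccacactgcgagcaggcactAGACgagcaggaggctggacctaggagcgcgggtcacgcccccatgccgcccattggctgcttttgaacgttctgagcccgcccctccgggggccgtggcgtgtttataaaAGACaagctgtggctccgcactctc
ID2: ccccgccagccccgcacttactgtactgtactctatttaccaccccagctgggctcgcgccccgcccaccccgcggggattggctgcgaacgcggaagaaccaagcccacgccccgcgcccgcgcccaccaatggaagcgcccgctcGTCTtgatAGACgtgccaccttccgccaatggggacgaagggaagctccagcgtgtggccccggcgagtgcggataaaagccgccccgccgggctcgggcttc
ID3: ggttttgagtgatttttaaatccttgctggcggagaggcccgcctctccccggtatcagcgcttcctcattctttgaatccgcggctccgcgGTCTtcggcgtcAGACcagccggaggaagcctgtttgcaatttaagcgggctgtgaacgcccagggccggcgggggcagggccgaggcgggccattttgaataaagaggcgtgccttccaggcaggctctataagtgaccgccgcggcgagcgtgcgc
ID4: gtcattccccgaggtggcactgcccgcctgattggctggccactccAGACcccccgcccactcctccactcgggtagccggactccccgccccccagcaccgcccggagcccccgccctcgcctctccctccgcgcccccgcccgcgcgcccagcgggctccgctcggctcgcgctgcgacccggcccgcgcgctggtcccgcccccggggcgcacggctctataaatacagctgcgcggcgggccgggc
CHRDL1: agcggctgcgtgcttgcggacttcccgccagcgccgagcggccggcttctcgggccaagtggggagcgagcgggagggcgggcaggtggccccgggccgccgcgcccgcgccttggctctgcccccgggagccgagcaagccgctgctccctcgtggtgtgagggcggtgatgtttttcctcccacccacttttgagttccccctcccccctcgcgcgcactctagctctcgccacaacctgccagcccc

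The SMAD box matched 3 times in ID1, 2 times each in ID2 and ID3, 1 time in ID4 and 0 times in CHRDL1, and 77.5% of 35116 upstream windows of this length held it. The GC-rich SMAD element GGCGCC, a palindrome, was in none of these 5 windows and in 16.4% of all. Of the windows not printed, that of BAMBI held 4 SMAD boxes and 3 GC-rich elements. The BMP4 windows held 0 to 2 SMAD boxes and 0 to 1 GC-rich elements, and that of BMPR1A held 0 of both. The E box CANNTG, also its own complement and the motif of E proteins, matched 1 time each in ID2 and ID4, 2 times in CHRDL1 and 0 times in ID1 and ID3, and was in 61.8% of all windows. The CCAAT box CCAAT, searched on both strands, matched 3 times in ID2 and 1 time each in ID1 and ID4, and was in 32% of all windows. The TATA box TATAAA, searched on both strands, was in ID1 and ID4 and in 10.7% of all windows. The SMAD box and the GC-rich element cannot share a base. Whether the number of SMAD boxes goes with the difference of a gene was not tested. These matches are letters in a short window, and sites farther upstream were not looked at.

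The E proteins, which ID proteins bind, did not move together. TCF4, the E2-2 protein gene, read -0.31, -0.30 and -0.39 on the myocilin arrays, against 0.21, 0.44 and 0.32 on the control arrays. It fell by 0.65 ± 0.070 (log2, SE; limma adjusted p = 0.000584), and all of its 8 probe sets fell, by 0.58 to 0.71. TCF4 lies on chromosome 18, where 48.2% of genes were called lower, and read -0.39 with neighbours subtracted (limma adjusted p = 0.00742). TCF3 at 0.031 and TCF12 at -0.00064 did not pass the threshold. By limma 1 of the 3 thus fell and 0 rose, while 15.6% of all genes passed. At an unadjusted p under 0.05 the counts were also 1 and 0.

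Over the other genes of the pathway, taken from 6 lists that hold no gene described as a member above, 68 of 72 were measured. Of these 13 passed the threshold (19.1%, beside 15.6% of all genes), 3 higher and 10 lower in the myocilin line. With 1 probe set per gene 11 passed, 5 higher and 6 lower, 8 of them among the 13, and with neighbours subtracted 7 passed, 3 higher and 4 lower. Their median difference was 0.0034, beside 0.018 over all genes.

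**Figure D3:**
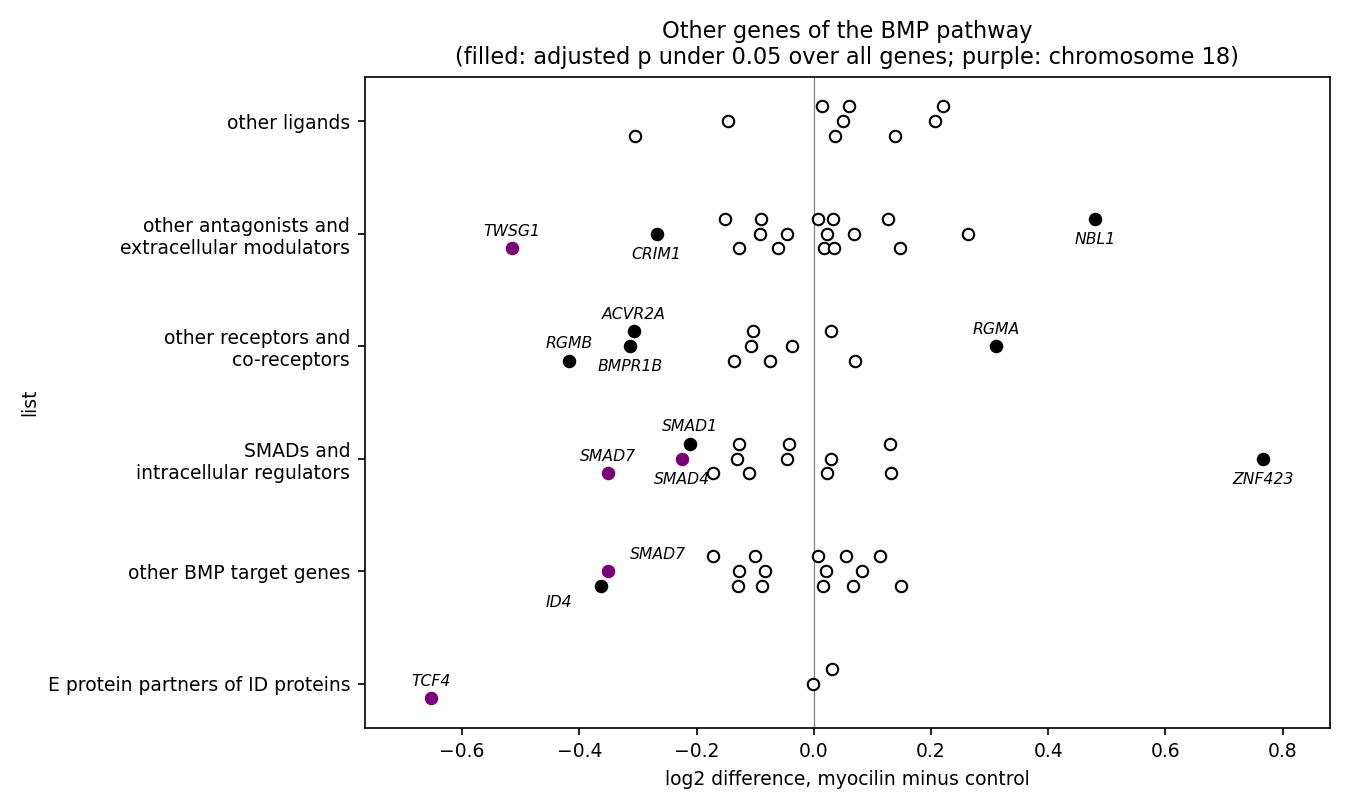
Log2 difference, myocilin minus control (horizontal axis), of each measured gene in the 6 lists of other pathway genes (rows). Filled points passed the threshold over all genes and purple points lie on chromosome 18; all 4 of the purple genes, TWSG1, SMAD7, SMAD4 and TCF4, fell, and SMAD7 stands in 2 lists.

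Among 9 other ligands 0 passed the threshold in limma, with 2 higher and 1 lower at an unadjusted p under 0.05. That unadjusted level was reached by 5503 of all 18338 genes, 2984 higher and 2519 lower. BMP6, which regulates iron through hepcidin, read 0.21 (adjusted p = 0.0802), with probe sets from -0.11 to 0.48. BMP15, an oocyte factor, read 0.22 (adjusted p = 0.0863), and BMP3, an antagonistic ligand of bone, -0.31 (adjusted p = 0.119). The count of 0 did not hold in 2 alternatives. Without control array 1, BMP6 at 0.26 (limma adjusted p = 0.0481) and BMP3 at -0.42 (adjusted p = 0.0358) passed, and with 1 probe set per gene BMP6 passed at 0.48 (adjusted p = 0.00329).

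Among 18 other antagonists and extracellular modulators, 1 rose and 2 fell by limma (16.7%, beside 15.6% of all genes). At an unadjusted p under 0.05, 4 were higher and 2 lower. TWSG1 (twisted gastrulation, which joins BMP and chordin) read -0.20, -0.15 and -0.42 on the myocilin arrays, against 0.16, 0.37 and 0.25 on the control arrays, and fell by 0.52 ± 0.085 (log2, SE; limma adjusted p = 0.00441). CRIM1, a membrane protein with chordin-like repeats that binds BMPs, fell by 0.27 ± 0.072 (adjusted p = 0.0358). Of the 3 probe sets of CRIM1, 0 passed over all probe sets, and its call was lost in 6 of 12 alternatives. NBL1 (also called DAN, a secreted antagonist) went the other way, with 0.38, 0.25 and 0.51 on the myocilin arrays, against -0.039, -0.22 and -0.035 on the control arrays, and rose by 0.48 ± 0.083 (adjusted p = 0.00532). The antagonists noggin (NOG, 0.069), chordin (CHRD, 0.0074) and gremlin (GREM1, 0.26, adjusted p = 0.0552) did not pass. NOG, CHRD and GREM1 were chosen after their values were seen, as the best known antagonists. The chordin-like gene CHRDL2 gave 0.15 and did not pass either, and was chosen in the same way.

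Of 11 other receptors and co-receptors, 1 rose and 3 fell (36.4%, beside 15.6% of all genes). With 1 probe set per gene 2 passed. BMPR1B, a type I receptor gene that acts beside BMPR1A, read -0.17, -0.12 and -0.081 on the myocilin arrays, against 0.15, 0.28 and 0.14 on the control arrays, and fell by 0.31 ± 0.062 (log2, SE; limma adjusted p = 0.00951). With 1 probe set per gene BMPR1B read -0.20 (adjusted p = 0.179). ACVR2A, a type II receptor gene shared with activin, fell by 0.31 ± 0.086 (adjusted p = 0.0411). The repulsive guidance molecules are BMP co-receptors, and their genes moved apart: RGMB fell by 0.42 ± 0.079 (adjusted p = 0.00802) and RGMA rose by 0.31 ± 0.077 (adjusted p = 0.0249). The 2 probe sets of RGMA gave 0.048 and 0.58, and the 2 of ACVR2A gave -0.49 and -0.13. With _x_at and _s_at probe sets removed RGMA read 0.048 (adjusted p = 0.781), and with 1 probe set per gene ACVR2A read -0.13 (adjusted p = 0.448). ACVR2A was also lost without any of 5 single arrays, and RGMA without any of 4.

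Of 14 SMADs and intracellular regulators, 1 rose and 3 fell (28.6%, beside 15.6% of all genes). With neighbours subtracted 1 passed. ZNF423, a zinc finger protein that joins SMADs at BMP target genes, read 0.25, 0.099 and 0.010 on the myocilin arrays, against -0.84, -0.33 and -0.77 on the control arrays, and rose by 0.77 ± 0.12 (log2, SE; limma adjusted p = 0.00409). It has 1 probe set and lies on chromosome 16, where the median gene was 0.14 higher and 27.5% of genes were called higher. With neighbours subtracted ZNF423 read 0.66 (limma adjusted p = 0.00767). SMAD7, an inhibitory SMAD that is itself a target, fell by 0.35 ± 0.071 (adjusted p = 0.0107). SMAD4, the common SMAD, fell by 0.23 ± 0.056 (adjusted p = 0.0269) and SMAD1, a receptor-activated SMAD, by 0.21 ± 0.061 (adjusted p = 0.0467). The calls of SMAD4 and SMAD1 were the least firm: SMAD4 was lost without any of 5 single arrays and SMAD1 without any of the 6. SMAD4 read 0.029 with 1 probe set per gene, and its 5 probe sets ran from -0.47 to 0.029. Of 16 other BMP target genes 2 fell, ID4 and SMAD7, and 0 rose by limma (12.5%, beside 15.6% of all genes). The same 2 and 0 stood at an unadjusted p under 0.05. With 1 probe set per gene 4 of the 16 passed, 1 higher and 3 lower, and with neighbours subtracted 1 passed, lower. SMAD9, also a target, read -0.17 (adjusted p = 0.177).

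Chromosome 18 was lower as a whole in the myocilin line, with a median difference of -0.21 over 274 genes, of which 48.2% were called lower. TWSG1, SMAD4, SMAD7 and TCF4, all 4 measured genes of the lists on this chromosome, made up 4 of the 10 that fell. With the median of the 50 nearest neighbours subtracted, TWSG1 read -0.26 (limma adjusted p = 0.0560), SMAD7 -0.18 (adjusted p = 0.125) and SMAD4 -0.025 (adjusted p = 0.828), none past the threshold, and TCF4 read -0.39 (adjusted p = 0.00742). In that setting 7 of the 68 genes were called, all of them among the 13: BMPR1B, ID4, NBL1, RGMA, RGMB, TCF4 and ZNF423. CHRDL1, SOSTDC1 and ID3 read -1.26, -1.20 and -0.46 against their neighbours, close to their values without the subtraction. The median of their neighbours differed by -0.0090, -0.038 and 0.0083 between the lines.

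**Figure D4:**
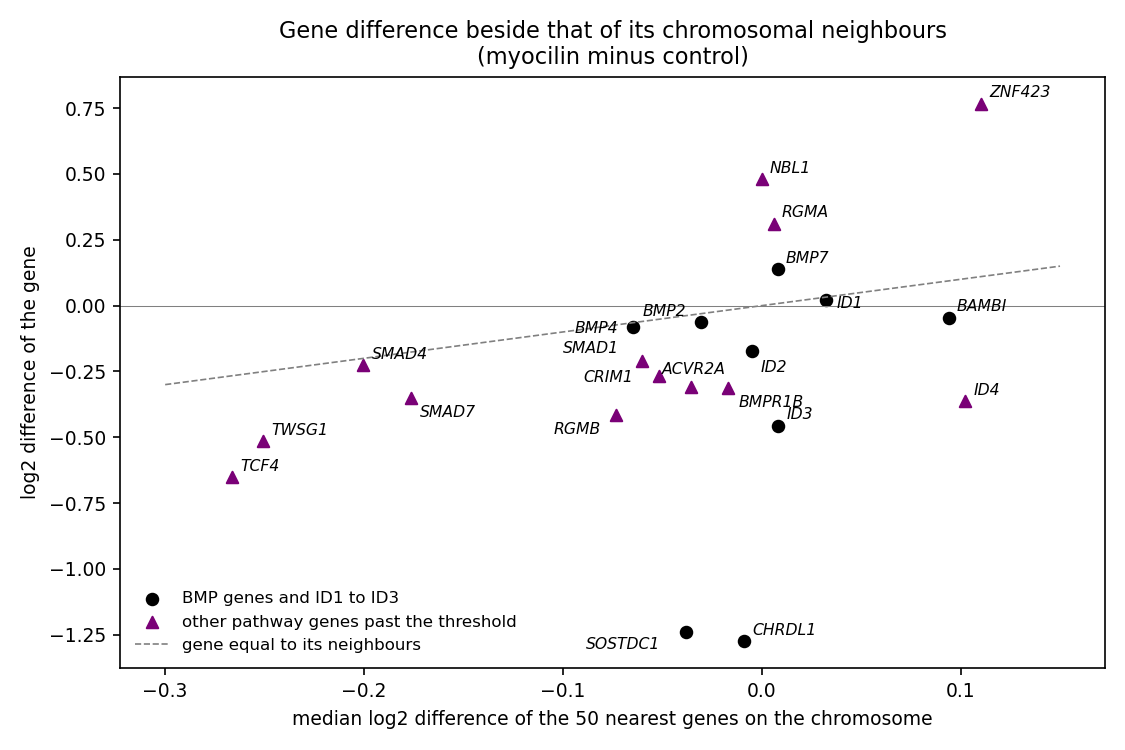
Log2 difference of each gene (vertical axis) beside the median difference of its 50 nearest genes on the chromosome (horizontal axis), myocilin minus control, for the 9 measured genes (circles) and the 13 other pathway genes past the threshold (triangles). SMAD4 and BMP4 lie near the dashed line of equality, while CHRDL1, SOSTDC1 and ID3 lie far below it.

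The 3 genes with array profiles nearest to that of CHRDL1, by the root mean square distance over the 6 arrays after centring each gene, were RTN1 at 0.137, MFAP2 at 0.151 and KCNJ2 at 0.153 log2 units. Their differences were -1.27, -1.36 and -1.26. For ID3 the nearest were PCYOX1L at 0.0176, LGALS8 at 0.0197 and NEDD4L at 0.0246, with differences of -0.47, -0.46 and -0.43. With 6 arrays in 2 groups, likeness of this kind mostly reflects a like difference between the lines.

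**Figure D5:**
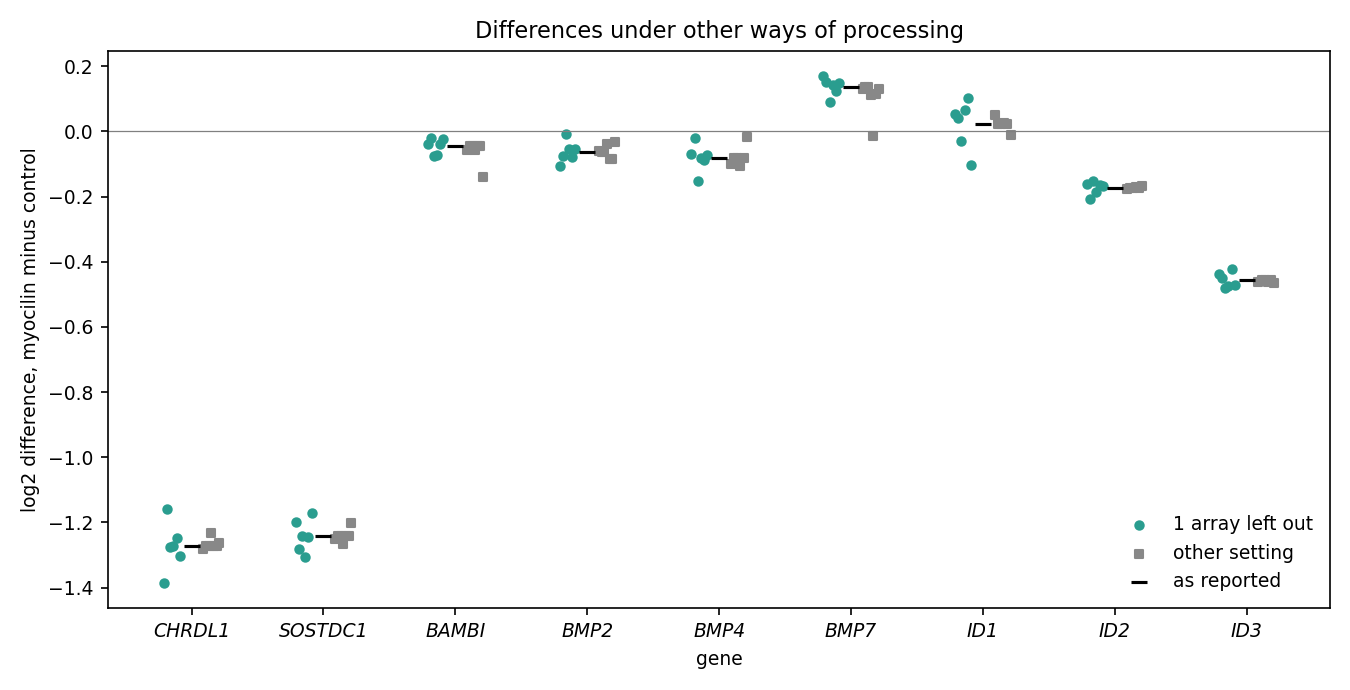
Log2 difference, myocilin minus control (vertical axis), of each of the 9 measured genes as reported (short line), with 1 array left out (circles) and under other settings (squares). CHRDL1, SOSTDC1 and ID3 stay at -0.42 or lower throughout, while BMP7 and ID1 fall on both sides of 0.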

How the data were processed

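The deposited table gives 1 value per probe set and array for 6 arrays, on a log scale that the range of the values led to being read as log2. How the authors corrected background, summarised probes and normalised is not given in the sources used here. The median was 0 on all arrays, and 9.81% to 12.6% of values per array are exact zeros. Centring removes brightness, so no dim probe sets could be filtered and no detection was called.

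Arrays were grouped by source name. Replicates were numbered in accession order and not paired, and the running numbers in the titles, 7 to 9 for myocilin and 1 to 3 for control, cannot be told apart from the lines. Of the probe sets 37460 had 1 gene, 1728 had several and 2563 were not listed. A gene was the mean of its probe sets, with symbols from the RefSeq table of GRCh38.p14 through 37416 matched probe sets. R 4.3.3 and the moderated two-sided test of limma 3.58.1 served to compare the lines over all genes and over all probe sets, and p-values were adjusted by Benjamini-Hochberg, with calls made below 0.05. Differences are myocilin minus control. The fit was tested on simulated independent values with added differences. Such data cannot show how the fit behaves where the arrays of a line are technical repeats.

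The genes, the lists and the tests were chosen with earlier results of these data known. Named genes were the 10 of the title list, MYOC, the marker genes past the threshold and the 3 nearest profiles of CHRDL1 and ID3. From each pathway list came up to 6 genes past the threshold, or the 3 with the smallest p where fewer passed. Genes named outside this rule are marked. Alternatives were quantile normalisation, median centring, array weights, trend and robust fitting, removal of _x_at and _s_at probe sets, 1 probe set per gene by ID, neighbours subtracted and each array left out. Precision is limited by 3 arrays per line.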

Additional observations from a re-analysis of the deposited data

Results flagged for a closer look

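Probe set 213931_at was not used above because the annotation lists it under both ID2 and ID2B, and it drew attention because it was higher in the myocilin line. It read 0.23, 0.51 and 0.30 on the myocilin arrays, against 0, -0.079 and 0.17 on the control arrays. The groups did not overlap, and the difference of 0.32 ± 0.096 (log2, SE) did not pass the threshold over all probe sets (limma adjusted p = 0.0653). The probe sets given to ID2 alone, 201565_s_at and 201566_x_at, both differed by -0.17, in the opposite direction. The difference between these probe sets was not tested.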

How the results depend on the processing

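CHRDL1 and SOSTDC1 passed the threshold under all 13 alternatives, with differences of -1.38 to -1.16 and -1.31 to -1.17. ID3 did so under the 12 that could be run for it, at -0.48 to -0.42. BAMBI moved to -0.14 with neighbours subtracted and BMP7 to -0.013 with _x_at and _s_at probe sets removed; BMP4, ID1, ID2 and ID3 have no other probe sets and gave no value there. Genes called numbered 1878 in that setting, which tests 15545 genes, and 1613 to 2220 with 1 array left out; probe sets called numbered 2281 to 3283 with 1 array left out. Of the other pathway genes, 7 were called with neighbours subtracted and 8 to 13 with 1 array left out. The lowest counts came without myocilin array 1 (1613 genes, 2281 probe sets, 8 pathway genes). Other left-out arrays that lowered a count by over 1.5 times were myocilin array 2 (1905 genes, 2693 probe sets), myocilin array 3 (2789 probe sets, 8 pathway genes), control array 2 (1889 genes, 2741 probe sets) and control array 3 (2878 probe sets). These fits use fewer arrays. Among genes not past the threshold, TCF12 turned to 0.0029 under quantile normalisation, 0.047 with array weights, 0.012 with 1 probe set per gene, 0.067 with neighbours subtracted, and to values between 0.0032 and 0.068 in 3 of the fits with 1 array left out (all 6 such fits: -0.057 to 0.068), and TCF3 to -0.070 with _x_at and _s_at probe sets removed. SMAD4 turned to 0.029 with 1 probe set per gene, and its call held in only 5 of 13 alternatives. CRIM1 was lost in 6 of 12 alternatives, ACVR2A in 7 of 13, RGMA in 5 of 13, SMAD1 in 9 of 13, WT1 in 7 of 12, COL1A1 in 5 of 12 and BMPR1B, TWSG1, SMAD7 and SYT1 in 1 of 13 each; the cause was not tested. No paired analysis was possible because the labels give no replicate number that arrays of both lines share. Signal over background could not be judged on centred values.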
